A study of Mus musculus with 2 samples.

Results

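Blimp-1, Bcl6, the Id proteins and the E proteins form a set of transcription factors that was followed here through their messenger RNAs in activated mouse CD4+ T cells. The genes chosen were Prdm1, Bcl6, Id2, Id3, Tcf3, Tcf12, Tcf7, Lef1 and Bach2, and every probe set with exactly 1 gene symbol equal to 1 of them was taken. This gave 14 probe sets for 8 of the 9 genes, out of 18003 probe sets for 11807 genes, and Tcf7 was not analysed here. The series holds 2 arrays: 1 of cells cultured without added cytokine and 1 of cells that received murine recombinant IL-27 at 25 ng/ml. For both, naive CD4+ T cells of female C57BL/6J mice were taken from lymph nodes and spleen and activated for 60 h on plate-bound antibodies to CD3 and CD28, so the untreated cells were also activated, and the age of the mice is not given in the sources used here. With 1 array per group there is no replicate, no test and no p-value, and a difference cannot be told apart from variation between cultures or hybridizations.

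Blimp-1, the product of Prdm1, and Bcl6 are zinc finger repressors that restrain each other: Blimp-1 favours effector and IL-10-producing T cells, and Bcl6 favours follicular helper cells, which give help to B cells. E proteins are helix-loop-helix activators that bind DNA as dimers at E-boxes, and Id proteins have the helix-loop-helix but no DNA-binding part, so they hold E proteins off DNA. Id2 is the Id protein typical of effector T cells and Id3 that of naive, follicular helper and memory-precursor T cells. Lef1 and Tcf7 are factors of the Wnt pathway that keep T cells naive or memory-like, and Bach2 restrains effector differentiation. IL-27 acts through a receptor of the IL-6 family and is known to raise Prdm1 and Il10 in T cells.

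The members on which the contrast turns, Prdm1 and Id2 on one side and Id3 and Bcl6 on the other, are shown first. They are shown by the 250 bases that precede their start sites, because Blimp-1, Bcl6 and the E proteins act on DNA. Sequences and positions are from RefSeq, build GRCm38.p6, and run 5′ to 3′ on the strand of the gene. Capitals mark E-boxes (CANNTG), the motif that E proteins bind, and the spaced palindrome TTCNNNGAA, which STAT factors bind and of which the Bcl6 motif is a variant. Bcl6 is shown by the first of 2 start sites in the table.
Prdm1, chr10:44458749-44458998, minus strand: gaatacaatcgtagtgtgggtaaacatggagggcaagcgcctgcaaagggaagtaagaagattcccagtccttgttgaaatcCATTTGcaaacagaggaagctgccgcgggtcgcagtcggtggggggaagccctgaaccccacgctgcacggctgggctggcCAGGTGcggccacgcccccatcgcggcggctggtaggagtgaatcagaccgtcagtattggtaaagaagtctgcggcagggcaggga
Id2, chr12:25096093-25096342, minus strand: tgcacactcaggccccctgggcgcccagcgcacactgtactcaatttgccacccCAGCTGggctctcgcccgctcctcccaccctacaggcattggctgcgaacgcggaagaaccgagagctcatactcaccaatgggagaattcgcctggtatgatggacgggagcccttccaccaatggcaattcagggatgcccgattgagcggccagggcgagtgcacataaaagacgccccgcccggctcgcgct
Id3, chr4:136143572-136143821, plus strand: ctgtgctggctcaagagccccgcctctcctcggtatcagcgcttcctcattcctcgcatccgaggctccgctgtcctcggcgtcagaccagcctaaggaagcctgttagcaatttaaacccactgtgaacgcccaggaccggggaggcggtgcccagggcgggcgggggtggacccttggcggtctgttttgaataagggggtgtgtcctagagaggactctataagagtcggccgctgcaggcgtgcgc
Bcl6, chr16:23988853-23989102, minus strand: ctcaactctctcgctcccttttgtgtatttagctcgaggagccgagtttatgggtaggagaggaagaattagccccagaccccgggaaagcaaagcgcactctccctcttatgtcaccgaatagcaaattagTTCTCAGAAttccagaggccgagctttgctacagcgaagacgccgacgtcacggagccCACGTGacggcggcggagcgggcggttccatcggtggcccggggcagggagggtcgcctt

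The Prdm1 window held 2 E-boxes, the Id2 window 1, the Bcl6 window shown 1 and the Id3 window 0. Among the members, 10 of 14 windows, or 71.4%, held an E-box, and these came from 6 of the 8 genes. E-boxes occurred in 66.2% of all 32851 windows of the same length, so their presence is common. The STAT palindrome occurred in 7.02% of all windows and was absent from the windows of Prdm1, Id2 and Id3. The Bcl6 window shown held 1, TTCTCAGAA, and the window before its second start site held 3, TTCCTGGAA, TTCTGTGAA and TTCCGGGAA. Bach2 was the other member with a palindrome, TTCGTTGAA. On both strands the AP-1 motif TGANTCA was matched once among the members, in Prdm1 at 48 bases before the start, and it occurred in 6.75% of all windows. The TCF/LEF motif CTTTGA was matched in windows of Bcl6, Lef1 and Bach2 and in 13.8% of all windows. The Blimp-1 core GTGAAAG was matched in 0 of 14 member windows, which overlap in part, and in 3.57% of all windows. These matches describe letters in short windows and no binding was measured.

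Intensities are RMA values on a linear scale, and a difference is the log2 intensity on the array of cells labelled as given IL-27 (the IL-27 array) minus that on the array of cells labelled as untreated (the untreated array). The background floor was set at 23.5, which is 4.55 in log2 units and the 95th percentile of 41 genes of other tissues on both arrays. Median intensities of 33.3 and 32.4 were close between the arrays. Of all genes, 6945 were above the floor on at least 1 array. The lymphocytes carried the markers of their label: all 9 measured genes of a CD4 T cell list were above the floor, with Cd4 at 342.5 and 395.4 and Cd3e at 607.0 and 546.2, untreated first. In that list 8 of the 9 read lower on the IL-27 array by any amount, with 0 by 2-fold and a median of -0.24. Directions follow the labels, and none of the values analysed here gives an independent check of which culture received IL-27. Prdm1 and Il10, which IL-27 is known to raise, were lower on the IL-27 array. Were the labels of the 2 arrays exchanged, every direction given here would turn.

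In the circuit, Prdm1 and Id2 were lower on the IL-27 array, while Id3 and the E protein gene Tcf3 were higher by less than 2-fold. Bcl6 was close to background on both arrays, and Tcf12, Lef1 and Bach2 were nearly level. Of the 8 genes, 2 were lower by 2-fold or more and 0 higher by that much, judged by their brightest probe set. Over all genes above the floor, 2.74% were lower and 1.48% higher by as much. All 8 were above the floor on at least 1 array. By probe set, 4 of the 13 above the floor were at least 2-fold lower, 3 of them from the single gene Id2. Of all probe sets above the floor, 2.57% were lower by as much. Prdm1, which is in both counts, and the dimmest Id2 probe set passed the floor through the untreated array alone, where they were higher. With each array's median subtracted, Id3 reached the limit and 1 gene was at least 2-fold higher.

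**Figure D1:**
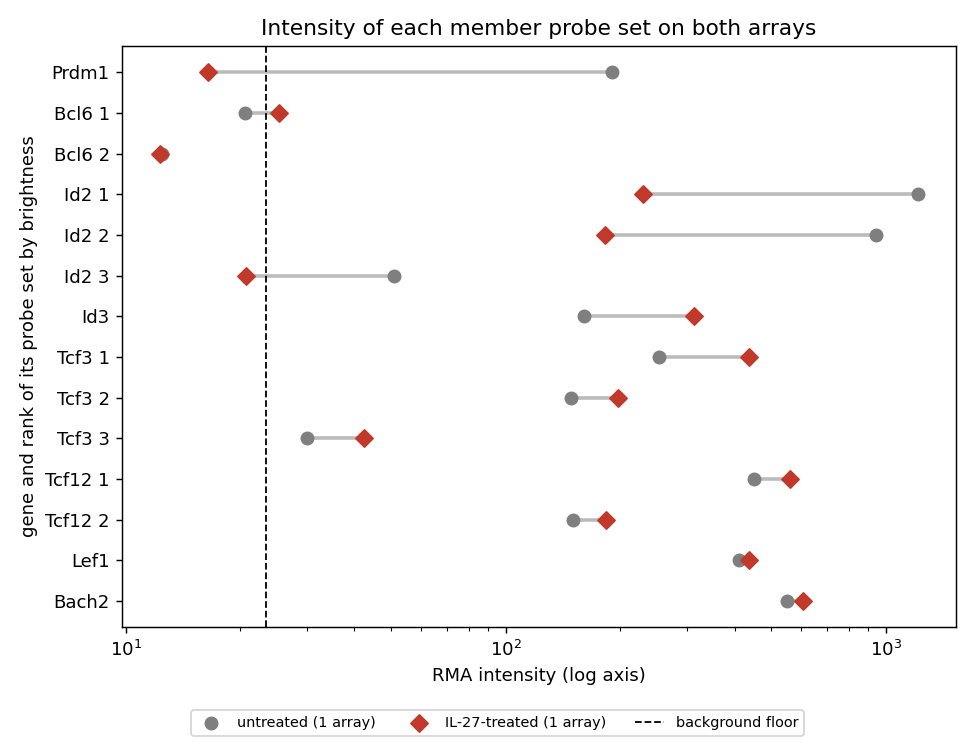
Intensity (RMA, log axis) of each member probe set on the untreated array (grey circles) and the IL-27-treated array (red diamonds), 1 array each, with numbers ranking a gene's probe sets by brightness and the dashed line at the background floor. Prdm1 runs from 189.8 to a value below the floor and the brightest Id2 probe set from 1213 to 230.2, while Id3 and all 3 Tcf3 probe sets run the other way.

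Prdm1 encodes Blimp-1. Its single probe set read 189.8 on the untreated array against 16.5 on the IL-27 array. The second value lies below the floor, so the transcript was at least 8.09-fold lower there. The measured log2 difference was -3.53, and it was -3.02 with dim values raised to the floor. By the measured difference, which uses the value below the floor, 0.173% of genes above the floor had a more negative one. The value rests on 1 probe set and 1 array per group.

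Id2 was the other member with a large difference. Its brightest probe set read 1213 untreated and 230.2 with IL-27, and its second read 940.6 and 182.9. These are 5.27-fold and 5.14-fold lower, or log2 differences of -2.40 and -2.36. The third probe set was far dimmer, at 50.8 and 20.8, below the floor on the IL-27 array, and was at least 2.17-fold lower. All 3 probe sets therefore lay on the lower side, and the dimmest gave the smallest difference, -1.29. Unlike Prdm1, Id2 stayed well above background on both arrays by its brighter probe sets.

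Id3, the other Id protein gene, went the opposite way. Its single probe set read 160.8 untreated and 313.6 with IL-27, a 1.95-fold difference or 0.96 on the log2 scale, just inside the 2-fold limit. A larger positive difference was found for 1.61% of genes above the floor. The Id3 to Id2 ratio thus differed by 3.36 on the log2 scale between the arrays, or 10.3-fold, which compares each probe set with itself and not the levels of the genes.

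Bcl6 gave little to set against Prdm1. Its brighter probe set read 20.6 untreated and 25.3 with IL-27, below the floor on the first array and just above it on the second. The other read 12.5 and 12.3 and was below the floor on both. The measured differences were 0.30 and -0.02, the sign of the second turned when the arrays were re-centred or loess-normalized, and 18.1% of genes above the floor had a larger positive difference than 0.30. A change in Bcl6 was not detectable at this signal.

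Prdm1 and Id2 together had a mean difference of -2.96, and Id3 and Bcl6 one of 0.63. The contrast between the pairs was -3.59 on the log2 scale. With dim values raised to the floor it was -3.24. Bcl6 entered it with a difference of 0.30 that rests on a value below the floor, and that was 0.11 with dim values raised to it. The members were named with earlier results known, and the contrast describes 2 arrays.

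**Figure D2:**
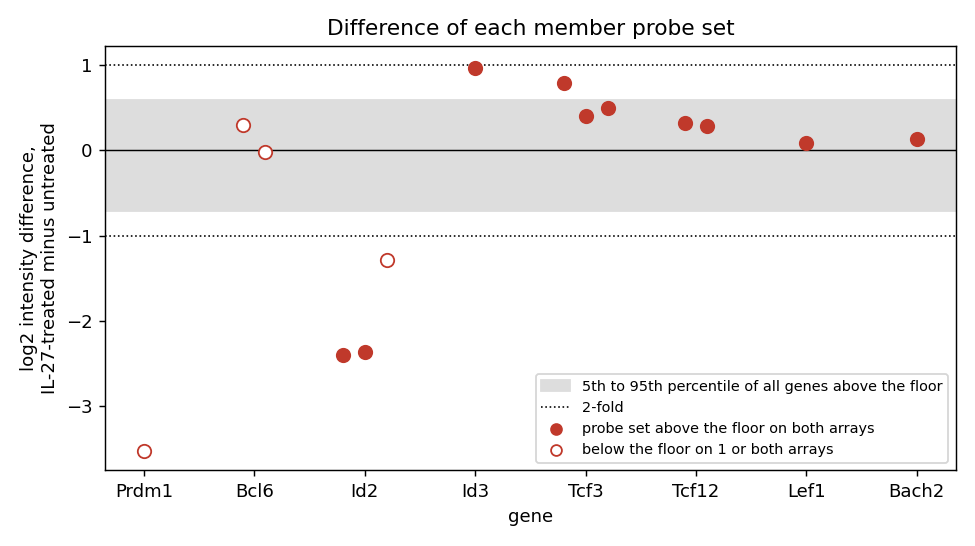
Log2 intensity difference, IL-27-treated minus untreated, of each of the 14 member probe sets, with open symbols for those below the floor on 1 or both arrays, the grey band from the 5th to the 95th percentile of all genes above the floor (-0.72 to 0.59) and dotted lines at 2-fold. Prdm1 and all Id2 probe sets lie below the band, Id3 and the brightest Tcf3 probe set above it, and the others inside it.

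No E protein gene was 2-fold apart. Tcf3, which encodes the splice products E12 and E47 and is a different gene from the Wnt pathway factor Tcf7l1, was read by 3 probe sets. The brightest read 252.6 untreated and 435.8 with IL-27, a 1.73-fold difference or 0.79 on the log2 scale. The second read 148.6 and 197.4, and the third, whose type can pick up related transcripts, read 29.9 and 42.3. Their log2 differences were 0.41 and 0.50, so the sign was the same in all 3 and the size was not.

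Tcf12, which encodes the E protein HEB, a partner of Tcf3 products in T cells, was closer to level. Its probe sets read 449.9 and 560.5, and 150.6 and 183.9, untreated first. The differences of 0.32 and 0.29 nearly coincided and lay inside the middle 90% of genes. The log2 difference of Tcf3 exceeded that of Id2 by 3.18, and that of Tcf12 did so by 2.71. Minus the difference of Id3, the differences of Tcf3 and Tcf12 came to -0.18 and -0.65. These are differences between changes, not between levels.

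Lef1 read 411.7 untreated and 437.8 with IL-27, and Bach2 read 550.3 and 604.3, each by 1 probe set. The log2 differences were 0.09 and 0.14. Across all genes with several probe sets above the floor, 2277 in number, the SD of the difference among probe sets of 1 gene was 0.21, so neither difference exceeded this probe-level error. Bach2 and Blimp-1 are known to repress each other's genes, and the Bach2 signal was nearly level where Prdm1 was at least 8.09-fold lower. That SD covers probe error alone and not variation between cultures.

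**Figure D3:**
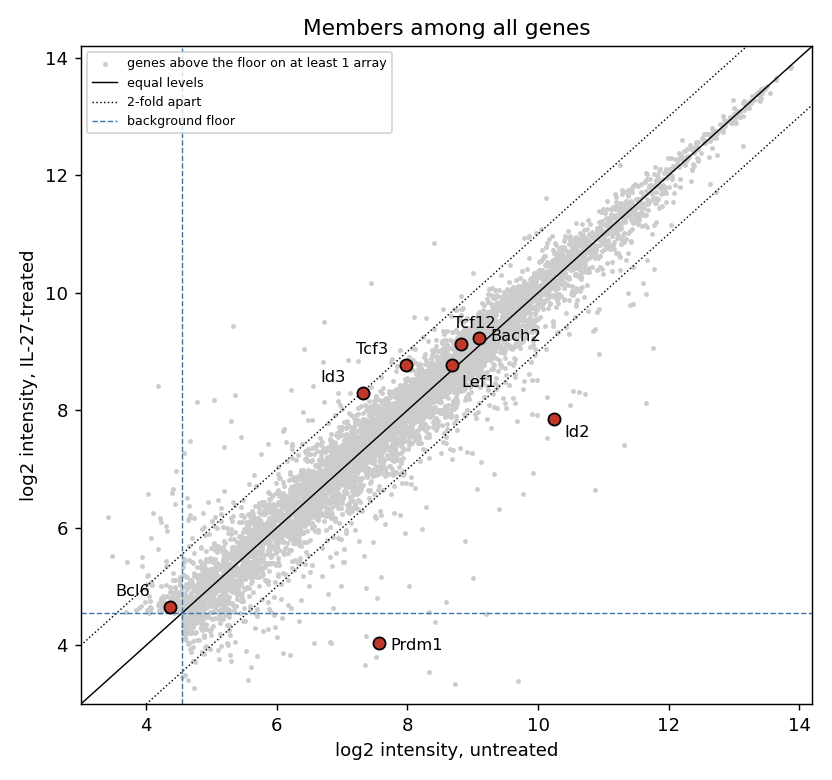
Log2 intensity of 6945 genes above the floor, untreated (horizontal) against IL-27-treated (vertical), by the brightest probe set of each gene, with the 8 members in red, the solid line at equal levels, dotted lines at 2-fold and dashed lines at the floor. Prdm1 and Id2 lie below the lower dotted line, Id3 lies just inside the upper one, and Bcl6 sits in the corner near the floor.

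Among close relatives of the members, 9 of 11 listed genes were measured and 5 were above the floor, with 0 at least 2-fold apart in either direction and a median of -0.28. At the shares found over all genes, 2.74% lower and 1.48% higher, a count of 0 in 5 genes sets them apart from no others. Bach1, a relative of Bach2 that responds to heme, read 138.5 and 75.9, a difference of -0.87. Zbtb7b, which encodes the CD4-lineage factor ThPOK, differed by -0.55 and -0.85 by its 2 probe sets. Id1 was at 23.1 and 24.9 and Tcf7l1 at 25.6 and 21.1, close to the floor, where a large fall could not be seen, and Id4 and the third E protein gene, Tcf4, were below it on both arrays. Id2 and Id3 were thus the Id genes with signal clearly above background.

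The genes that Blimp-1 is known to repress in T cells lay on both sides. Of 15 listed genes, 11 were measured and all 11 were above the floor. By 2-fold or more, 2 were higher and 0 lower, where 1.48% of all genes above the floor were higher and 2.74% lower. The list's median was 0.29, beside 0.02 over all genes above the floor. Il2, the growth factor of activated T cells, read 338.0 untreated and 1853 with IL-27, a difference of 2.45. Ccr6, a chemokine receptor, read 17.2 and 76.0 and was at least 3.24-fold higher. It passed the floor through the IL-27 array alone, where it was higher. Of the 7 listed genes outside the circuit that were above the floor on both arrays, 1 was at least 2-fold higher. Ifng differed by 0.75, Myc by 0.22, Cxcr5 by -0.04, Tbx21 by -0.23 and Fos by -0.47. The list also holds the members Id3, Bcl6 and Bach2, and without them 5 genes were higher by any amount and 3 lower, where 3619 of all 6945 genes above the floor were higher.

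In the list of effector genes that are known to go with Blimp-1, 11 of 13 were measured and 7 were above the floor. By measured values 5 of these were at least 2-fold lower and 0 higher. Over all genes above the floor, 2.74% were lower and 1.48% higher by as much. The list's median was -1.18, beside 0.02 over all genes above the floor. When dim values were set to the floor, the lower genes numbered 4 and the list's median was -1.01. Prf1, which encodes perforin, read 164.9 untreated and 17.8 with IL-27 by its brighter probe set, which is at least 7.03-fold lower. Its other probe set read 28.0 and 27.2, close to the floor on both. Il10 read 47.2 and 10.7, at least 2.01-fold lower, and the granzyme gene Gzma 34.3 and 15.2, at least 1.46-fold lower. The other 2 of the 5 were Id2 itself and the inhibitory receptor Lag3 (-1.09). Prf1, Il10 and Gzma passed the floor through the untreated array alone, where they were higher. Apart from these and Id2, the genes above the floor were Lag3, Gzmb (-0.63) and Ctla4 (-0.12), of which 1 was at least 2-fold lower. Over all 11 measured genes, with no filter, the median was -0.63, and Havcr2 and S1pr5, below the floor on both arrays, had measured differences of 0.24 and 0.12. These counts and medians do not show a change of the list.

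The follicular helper programme that Bcl6 controls had genes on both sides. Of 17 listed genes, 13 were measured and 10 were above the floor, with 1 at least 2-fold higher, 1 at least 2-fold lower and a median of 0.13. Among all genes above the floor, 1.48% were higher and 2.74% lower by as much, and the median was 0.02. With 1 gene each way among 10, these values do not show a change of the list. Il21, the cytokine of follicular helper cells, read 384.3 and 26.7, a difference of -3.85. Sh2d1a, which encodes the adaptor SAP, read 997.5 and 2065, a difference of 1.05. Cd200 differed by 0.72 and the B cell coactivator gene Pou2af1 was at least 1.36-fold lower. Cxcr5 was at 45.7 and 44.6 and Pdcd1 at 46.2 and 56.4, so neither marker of these cells differed by much. The list's median turned to -0.04 with the mean of all probe sets.

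Of the naive and memory genes linked to Tcf7 and Lef1, 14 of 19 were measured and 13 were above the floor. At least 2-fold apart were 1 lower and 0 higher, beside 2.74% lower and 1.48% higher over all genes above the floor. By any amount 8 were lower and 5 higher, where 3306 of all 6945 genes were lower. The median was -0.35, or -0.23 with no filter and -0.22 for genes above 2 times the floor. Igfbp4, which encodes a binding protein of insulin-like growth factors, read 1587 and 316.3 by its brightest probe set, a difference of -2.33. Its 6 probe sets gave differences from -2.59 to -1.18, all on the lower side. Bcl2, which encodes a survival protein, differed by -0.97, and Myb and Slamf6, genes of memory-like T cells, by 0.91 and 0.69.

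Genes that E proteins are known to activate had 2 of 7 above the floor at least 2-fold lower and 0 higher, with 12 of 14 measured. Shares over all genes above the floor were 2.74% lower and 1.48% higher. One of the 2 lower genes is Id2, and the other is Dntt, which encodes the polymerase that adds bases at antigen receptor joins. Dntt read 186.2 untreated and 28.2 with IL-27, a difference of -2.73. Gfi1, a zinc finger repressor of lymphocytes, differed by 0.45. The thymocyte genes Rag1, Rag2 and Ptcra were below the floor on both arrays. The median of -0.04 is near that of all genes, and its sign turned with each array's median subtracted and without the filter on dim genes.

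**Figure D4:**
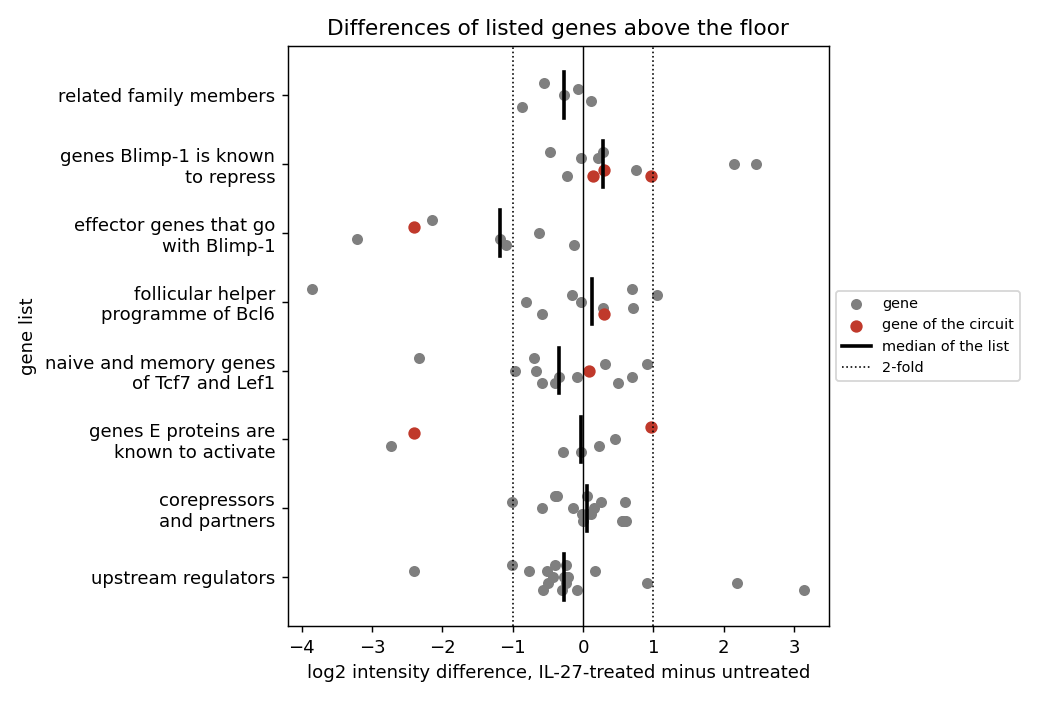
Log2 intensity difference, IL-27-treated minus untreated, of the genes above the floor in each list (grey points, 1 per gene, with circuit members in red), the black bar at the list's median and dotted lines at 2-fold. The effector genes above the floor lie at or below -0.12 with a median of -1.18, 3 of them above the floor on the untreated array alone, and the genes Blimp-1 is known to repress have a median of 0.29.

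Corepressors and partners through which these factors act were mostly level. Of 22 listed genes, 18 were measured and 16 were above the floor, with 1 at least 2-fold lower, 0 higher and a median of 0.05. All genes above the floor had shares of 2.74% lower and 1.48% higher by as much. Maff, a small Maf protein that can pair with Bach factors, read 116.3 and 57.7, a difference of -1.01. The Groucho corepressor genes Tle4 and Tle1, which bind TCF and LEF factors, differed by 0.61 and 0.60, and Ldb1, an adaptor of helix-loop-helix complexes, by -0.58. The histone deacetylase genes Hdac1 and Hdac2 differed by 0.06 and 0.00.

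Among regulators known to act on the circuit, 2 of 19 above the floor were higher by 2-fold or more and 2 were lower. Over all genes above the floor the shares were 1.48% higher and 2.74% lower. Of 26 listed, 23 were measured, and the median was -0.27. The T-box factor gene Eomes read 32.8 and 290.4, a difference of 3.15, and its other probe set was at least 10.2-fold higher. Gata3, the factor of Th2 cells, read 36.5 and 166.4, a difference of 2.19. Nfil3, a leucine zipper factor that acts upstream of Id2 in innate lymphoid cells, read 1433 and 271.7, a difference of -2.40. Junb differed by -1.01, and Stat3 and Irf4, both of which bind Prdm1, by -0.40 and -0.27.

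Over 2 arrays the likeness of patterns comes down to the size of 1 difference per gene. Prdm1 was below the floor on the IL-27 array, so its difference is a bound and no nearest genes are given. Among 6633 other genes above the floor on both arrays, nearest to Id2 were Nfil3 (-2.40), Selenbp1 (-2.41) and the ADP-ribosyltransferase gene Tiparp (-2.41). Nearest to Id3 were the kinase gene Sik1, the NF-kappaB subunit gene Rel and the glycosyltransferase gene Galnt7, each at 0.96.

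Because Prdm1, Bcl6 and Bach2 are also expressed in B cells and Id2 in innate lymphoid and dendritic cells, markers of those cells were read beside them. Of 10 B and plasma cell markers measured, 1 was above the floor, Cd79b, at 20.2 and 25.6, and Cd79a, Ms4a1 and Pax5 were below it on both arrays. In the NK and innate lymphoid list 2 of 6 were above the floor. These were the receptor genes Klrd1 and Klrk1, which activated T cells can also express, at least 4.87-fold and 2.91-fold lower with IL-27. Both passed the floor through the untreated array alone, where they were higher. Klrd1 read 114.2 and 16.4, and Klrk1 read 68.2 and 14.7. The defining NK genes Ncr1 and Klrb1c were below the floor on both arrays. The list's summed intensity was 236.1 untreated and 80.0 with IL-27, and most of that difference lay in Klrd1 and Klrk1. Of 12 myeloid and dendritic markers, 2 were above the floor, Cd68 (54.9 and 27.5) and Csf1r (26.2 and 24.4), and the summed intensities were 207.7 and 175.4. Of the CD8 T cell markers, Cd8a was below the floor on both arrays and Cd8b1 read 119.3 and 176.5. The part of other cells in the Id2 difference was not tested beyond these values. In such bulk RNA, fewer cells that express a gene and less RNA per cell cannot be told apart.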

How the data were processed

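Gene expression was measured on 1 array of untreated and 1 of IL-27-treated CD4+ T cells, from 100 ng of total RNA by a 3' in vitro transcription kit, per the labels' protocols. The deposited values are linear intensities, 1 for each probe set on each array, which the authors made with RMA per the submitters' processing notes. The sources used here do not name its version or settings. This procedure makes the intensity distributions of arrays alike and compresses dim differences, so a change in total RNA cannot be seen.

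Intensities were taken to log2 with no pseudocount. A gene was represented by its brightest probe set (highest mean log2 level), and at least 2-fold apart was the call. For genes below the floor on 1 array, the fold is a lower bound against the floor. Of 22716 probe sets, 18003 had 1 symbol, 287 several and 4426 none listed in the platform annotation; 8 members matched a RefSeq gene table by Entrez ID. All 8 measured members are named with every probe set, with up to 4 genes per list by absolute difference and the 3 genes nearest to Id2 and Id3; the rule also took those nearest to Prdm1, which are not given because its difference is a bound. Other genes were named after their values were seen. The members and lists were chosen with earlier results of these data known. Alternatives covered normalization, a pseudocount of 16, dim values, probe set choice, the filter and a 1.5-fold threshold. The procedure was tested on simulated data with an assumed noise and with changes planted only in genes well above the floor. That simulation therefore tested neither the handling of changed genes with dim values nor variation between cultures. Python 3.11.15, pandas 2.3.3, R 4.3.3 and limma 3.58.1 were used.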

Additional observations from a re-analysis of the deposited data

How the results depend on the processing

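No member's difference of at least 2-fold changed sign under the 6 alternatives that recompute it; single genes outside the circuit were not rerun. No paired analysis was possible because each group has 1 array. Prdm1 and Id2 remained the 2 members past the threshold on the lower side under each of 9 alternatives. The 1.5-fold threshold and the removed filter could only add genes. The filter at 2 times the floor looks at the brighter array, so none of these settings could drop Prdm1 or Id2. The contrast of Prdm1 and Id2 with Id3 and Bcl6, -3.59, was -3.03 with a pseudocount of 16, -3.24 with dim values raised to the floor, -3.32 with the mean of all probe sets and -3.04 with the brightest plain probe set (no type letter in its name), which for Id2 is the dimmest of 3. For the last 2 settings Id2 differed by -2.02 and -1.29. Subtracting each array's median gave 1 member (Id3), 1 gene of the E protein list (Id3 again) at least 2-fold higher, 0 corepressors lower and 1 upstream regulator lower; the pseudocount gave 0 and 1 for the latter lists. Loess normalization gave 2 naive and memory genes lower. At a 1.5-fold threshold, 2 members were higher, 1 relative lower, 4 genes Blimp-1 represses higher, 3 follicular helper genes higher and 3 lower, 2 naive and memory genes higher and 5 lower, 1 gene of the E protein list higher and 2 corepressors higher, while 356 genes overall were higher and 503 lower. Signal near the floor limits Bcl6, the third Id2 probe set and the lower value of Prdm1. The number of arrays limits everything else.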
